A study of Homo sapiens with 15 samples.

Results

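SNB19 cells carrying a mutated short form of ZBTB18 (SF-mut) were compared with SNB19 cells carrying the mutated full-length protein (FL-mut), over all genes with enough counts. The comparison used 6 of the 15 libraries, 3 per group, and 6767 of the 18485 genes in the table, those that passed a filter on low counts. SNB19 is a human glioblastoma line grown in serum, and all cells were transduced with a lentiviral pCHMWS vector: empty (EV), or encoding ZBTB18 FL, FL-mut, SF-Nte or SF-mut. Polyadenylated RNA was read as PCR-amplified cDNA on the Oxford Nanopore platform. Per the labels, the groups share every condition but the insert. Neither the altered residues, nor the sequence missing from the short form, nor the origin of the replicates (separate cultures or not) is given there, so a p-value here reflects library-to-library spread that may be technical. The 6 libraries of SF-Nte and FL cells were read beside the mutated pair, taken as the same change of form without the mutations. The titles do not say what Nte marks, or whether both mutated forms carry the same mutations.

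ZBTB18, also called RP58, is a transcriptional repressor with a BTB domain that mediates protein contacts and C-terminal zinc fingers that bind DNA at E-box-like sites. It recruits corepressors such as CtBP proteins, silences progenitor genes in developing cortical neurons, and is known in glioblastoma as a repressor of mesenchymal genes. A difference between a short and a full-length form asks which expression changes depend on the part that the forms do not share. Here both forms are labelled as mutated.

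The FL-mut libraries held 865997 to 1313573 counts and 11372 to 12954 genes with a count. The SF-mut libraries were shallower, with 315693 to 597414 counts and 8177 to 10114 genes with a count. In the deposited sample sheets, FL-mut is listed with EV, FL and SF-Nte under barcodes 1 to 12, whereas the SF-mut barcodes are numbers 1 to 3 again with a suffix and stand in a second sheet with SF-Nte. A difference in handling between SF-mut and FL-mut can therefore not be told apart from the form. Glioblastoma markers summed to 639 to 1009 CPM (edgeR's normalised read count relative to library size, after scaling by the trimmed mean of M values) in FL-mut and 1152 to 1288 CPM in SF-mut, with VIM and CD44 well detected. S100B was at 0 in all 6 libraries, and GFAP averaged 1.16 CPM in FL-mut and 0 CPM in SF-mut, so these defining glial markers were absent or nearly so. Markers of other cell types were low: immune markers summed to 11.1 to 25.1 CPM in FL-mut and 3.27 to 18.5 CPM in SF-mut, with ITGAM and FCER1G at 0, and endothelial markers to 14.7 to 29.3 and 13.1 to 33.9 CPM, with CDH5 at 0. Epithelial markers summed to 35.1 to 82.8 CPM in FL-mut and 42.5 to 170 CPM in SF-mut with CDH1 at 0, and their part in the results below was not tested.

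Transcripts counted as ZBTB18 (chr1, plus strand) measured the constructs. EV libraries held 4.37 to 7.12 CPM. FL-mut libraries held 907, 2800.0 and 6858 CPM and SF-mut libraries 853, 3631 and 896 CPM. All 6 libraries were far above EV, and the groups overlapped. The log2 fold change of SF-mut over FL-mut was -0.98 ± 0.73 (SE), with an edgeR adjusted p of 0.762. It was -0.10 without FL-mut replicate 3 and -2.02 without SF-mut replicate 2. Reads of the endogenous gene, of the construct and of each form are not separated in the table, and construct level varied several-fold between replicates of a group. Between the unmutated forms the log2 fold change was -2.26, with an edgeR adjusted p of 0.189. There the groups did not overlap, with FL at 623 to 3067 CPM and SF-Nte at 199 to 470 CPM. The part of construct level in the comparisons with that pair was not tested.

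Few genes passed the test between the mutated forms. At an edgeR adjusted p under 0.05, 11 of 6767 genes (0.163%) differed: 3 were higher with the short form (0.0443%) and 8 were lower (0.118%). An unadjusted p under 0.05 was reached by 654 genes (9.66%), 258 higher (3.81%) and 396 lower (5.85%). The 3 libraries of one group lay wholly above or below those of the other for 916 genes (13.5%), 373 with SF-mut above (5.51%) and 543 with SF-mut below (8.02%). The median log2 fold change over all genes was -0.09, and 45.6% of genes lay above 0. The higher genes were S100A4, LRMDA and ZMYM3. The lower genes were 5 SPANX cancer-testis genes, MICA, TCF3 and MDK.

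**Figure D1:**
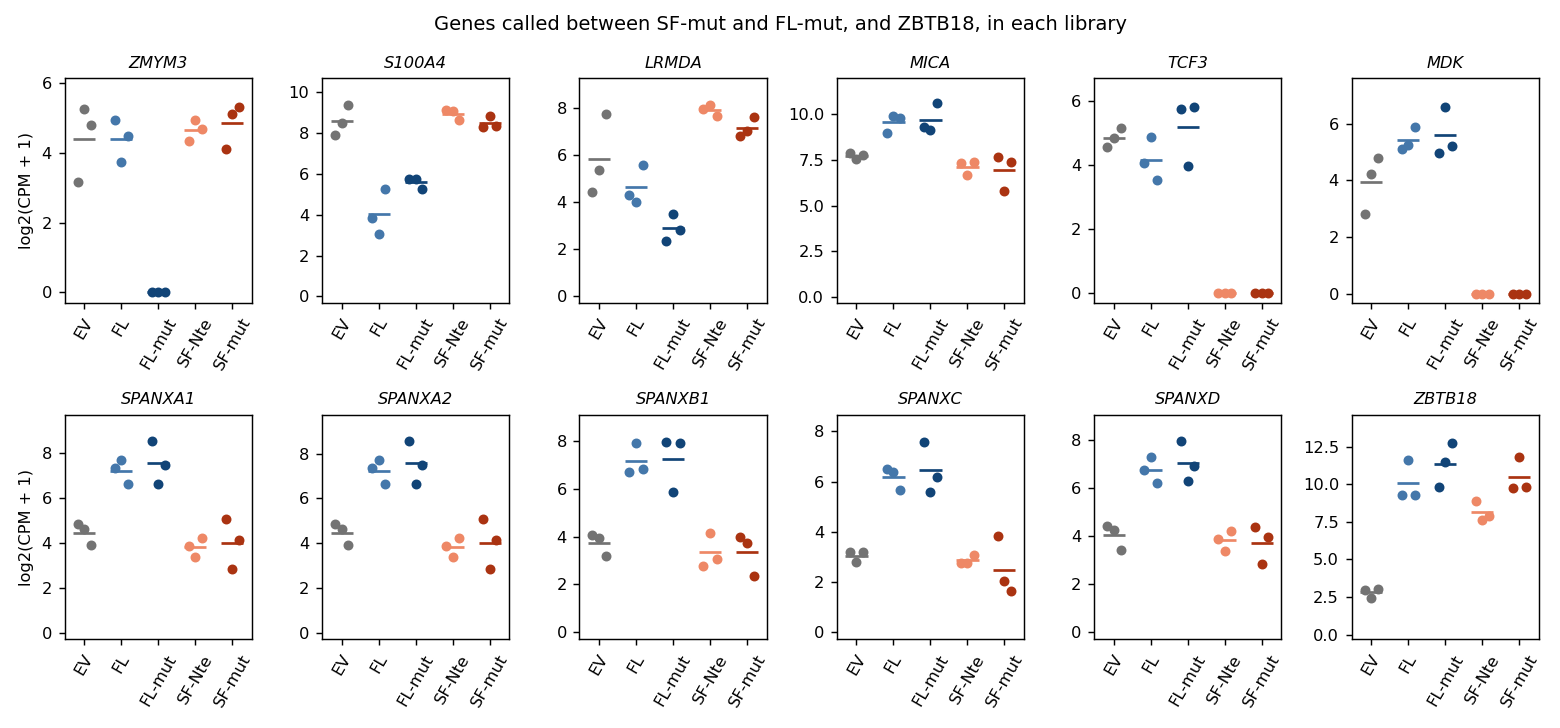
Level of the 11 called genes and of ZBTB18 in each of the 15 libraries, as log2(CPM + 1) on the vertical axis by construct, with points for libraries and bars for group means. SF-mut points lie apart from FL-mut points in every called gene, TCF3 and MDK are at 0 in all 6 short-form libraries, ZMYM3 is at 0 in the 3 FL-mut libraries only, and ZBTB18 overlaps between FL-mut and SF-mut.

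The calls were sensitive to single libraries. With FL-mut replicate 1, FL-mut replicate 3, SF-mut replicate 2 or SF-mut replicate 3 left out, edgeR called 0 genes (722, 511, 1075 and 599 genes at an unadjusted p under 0.05), and DESeq2 called 117 genes on the full set, including all 11. With offsets for transcript length and GC content the split was 7 higher and 5 lower, against 3 and 8 without them.

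The SPANX genes fell together. SPANX proteins (sperm protein associated with the nucleus, X-linked) are normally made in the testis and appear in some tumours, and their genes lie as near-identical copies on the X chromosome. SPANXB1 (chrX:141002591-141003706, GRCh38, plus strand) stood at 251, 56.6 and 243 CPM in FL-mut and 14.7, 12.3 and 4.10 CPM in SF-mut. SPANXA1 (chrX:141583674-141585011, minus strand) stood at 373, 98.5 and 179 CPM in FL-mut and 32.7, 6.16 and 16.4 CPM in SF-mut. The groups did not overlap for either copy, and FL-mut replicate 2 was the lowest FL-mut library for both. The EV libraries held 8.01 to 16 CPM of SPANXB1 and 14.2 to 27.5 CPM of SPANXA1, so SF-mut overlapped the empty vector and FL-mut lay above it. The log2 fold change was -4.13 ± 0.68 for SPANXB1 and -3.48 ± 0.60 for SPANXA1, both with an edgeR adjusted p of 0.0271. SPANXA2 (chrX:141589435-141590772, plus strand), SPANXC (chrX:141241463-141242496, minus strand) and SPANXD (chrX:141697411-141698739, minus strand) had log2 fold changes of -3.48, -3.93 and -3.39.

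How reads were divided among these copies is uncertain. SPANXA1 and SPANXA2 held 369 and 370 counts in FL-mut replicate 1, and equal counts in the other libraries of the mutated pair. In the SF-Nte libraries SPANXD equalled both, at 13.5, 9.41 and 17.4 CPM. Whether the same reads were counted under more than 1 symbol was not tested. The annotated transcripts of SPANXA1 and SPANXA2 were 100% identical over 691 bases, and the other pairs of copies were 90.5% to 99.0% identical. Summed to 1 feature, a count chosen after the data were seen, the 5 genes stood at 1432, 377 and 793 CPM in FL-mut and 113, 33.9 and 53.3 CPM in SF-mut. The sum fell by 3.67 ± 0.52 on the log2 scale (edgeR adjusted p 0.0203), and by 3.52 ± 0.52 between SF-Nte and FL (edgeR adjusted p 0.0049). A read counted under more than 1 symbol enters this sum more than once. The CPM, SE and adjusted p of the sum may therefore rest on repeated reads. The fall is thus 1 measurement of a family rather than 5 separate ones. Counted in that way, 7 genes were called in all.

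In front of the RefSeq starts the match of the copies varied. Against the bases before the SPANXA1 start, without gaps, SPANXA2 matched at 100% of 250 positions, SPANXC at 98.8% of 250, SPANXB1 at 72.0% of 211 and SPANXD at 29.6% of 247. The RefSeq start of SPANXA1 lies inside its gene span given above, whereas that of SPANXD lies at the edge of its span. The SPANXD value thus sets unlike stretches against each other and does not measure how alike these copies are. The 120 bases printed for SPANXA1 (chrX:141584862-141584981, minus strand), SPANXB1 (chrX:141002390-141002509, plus strand) and SPANXC (chrX:141242641-141242760, minus strand) lie before the transcription start in RefSeq (GRCh38.p14). Those of SPANXA1 are still inside its gene span given above, which comes from GENCODE. The printed bases are a stretch, chosen after the sequences were compared, over which these 3 copies are nearly the same. They are shown because the copies fell together, and capitals mark the 1 of 120 positions that is not the same in all 3.
SPANXA1: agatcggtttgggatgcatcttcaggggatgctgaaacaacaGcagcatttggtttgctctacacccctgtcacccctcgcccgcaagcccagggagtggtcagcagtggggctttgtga
SPANXB1: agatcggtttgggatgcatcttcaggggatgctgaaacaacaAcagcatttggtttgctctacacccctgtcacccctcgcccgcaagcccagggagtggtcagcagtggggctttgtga
SPANXC: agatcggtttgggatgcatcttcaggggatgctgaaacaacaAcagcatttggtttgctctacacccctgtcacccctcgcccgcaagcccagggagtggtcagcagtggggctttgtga

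S100A4 rose. It encodes a small calcium-binding protein known for promoting cell motility and used as a mesenchymal marker. S100A4 (chr1:153543613-153550136, minus strand) stood at 53.5, 53.2 and 36.9 CPM in FL-mut and at 310.5, 450.0 and 330.1 CPM in SF-mut. Each SF-mut library was several times above every FL-mut library and lay within the 238 to 671 CPM of EV, whereas FL-mut lay below EV. The log2 fold change was 2.92 ± 0.49 with an edgeR adjusted p of 0.0271. Between the unmutated forms it was 4.68 ± 0.53 (edgeR adjusted p 0.000427), with FL at 7.46 to 36.8 CPM. The annotated S100A4 span overlaps that of S100A3 on the same strand, and S100A3 stayed at or under 12.3 CPM in all 6 libraries of the mutated pair.

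The neighbouring S100 genes of the cluster on chromosome 1 differed less or not beyond the test. S100A2 stood at 86.9, 80.4 and 49.4 CPM in FL-mut and 389, 542 and 601 CPM in SF-mut. Its groups did not overlap, but its log2 fold change of 2.82 ± 0.60 had an edgeR adjusted p of 0.0914. S100A16, named after its values were seen, was the only tested member below 0, at -0.78 ± 0.51 with overlapping groups (edgeR adjusted p 0.695). Of 8 tested S100 genes, 7 lay above 0, 1 was called and 4 had SF-mut wholly above FL-mut. Their median log2 fold change was 0.43, against -0.09 over all genes, and 2.36 between the unmutated forms.

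S100A6 differed between the pairs by a test of the difference itself. It encodes calcyclin, a calcium-binding protein of dividing cells. S100A6 stood at 5698, 5984 and 4106 CPM in FL-mut and 7781, 8008 and 8843 CPM in SF-mut. FL libraries held 1109 to 1931 CPM, SF-Nte libraries 7727 to 9239.6 CPM and EV libraries 12727 to 13753 CPM. Both short forms thus lay in a like range below EV, and FL lay furthest below it, with FL-mut in between. The log2 fold change was 0.64 ± 0.22 with the mutations (edgeR adjusted p 0.313) and 2.60 without them (edgeR adjusted p 2.35e-05), a difference of -1.95 ± 0.31 with an edgeR adjusted p of 0.0427.

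HMGN3 was the other gene of this kind. It encodes a nucleosome-binding protein that loosens chromatin. HMGN3 stood at 209, 237 and 259 CPM in FL-mut and 377, 409.9 and 513 CPM in SF-mut. FL libraries held 39.7 to 62.2 CPM, SF-Nte libraries 396 to 676 CPM and EV libraries 389.8 to 482 CPM. SF-mut overlapped EV, FL-mut lay below it, and FL lay below FL-mut. The log2 difference between the forms was 0.88 ± 0.27 with the mutations (edgeR adjusted p 0.258) and 3.45 ± 0.29 without them (edgeR adjusted p 2.32e-05), a difference of -2.57 ± 0.39 with an edgeR adjusted p of 0.039. These were the 2 of 6767 genes (0.0296%) past the threshold in the test of the difference, where 315 (4.65%) reached an unadjusted p under 0.05. With 1 of the 12 libraries left out, HMGN3 passed in 2 of 12 fits and S100A6 in 1 of 12, with adjusted p up to 0.204 and 0.208; with offsets for length and GC content S100A6 did not pass (edgeR adjusted p 0.264, from 3.42e-05 to 0.264 over all alternatives).

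The stretches before the starts of S100A4 and S100A6 are printed because S100A4 was called between the mutated forms and S100A6 in the test of the difference between the pairs. For S100A4 that difference was -1.75 ± 0.66, and the 2 genes were not compared with each other. The 250 bases before each start come from RefSeq (GRCh38.p14), S100A4 at chr1:153545807-153546056 and S100A6 at chr1:153535992-153536241, both on the minus strand. Both stretches lie inside the GENCODE spans of their genes, which reach further upstream than these RefSeq starts. Capitals mark CATCTG or its complement CAGATG, the core of the E-box-like site bound by ZBTB18.
S100A4: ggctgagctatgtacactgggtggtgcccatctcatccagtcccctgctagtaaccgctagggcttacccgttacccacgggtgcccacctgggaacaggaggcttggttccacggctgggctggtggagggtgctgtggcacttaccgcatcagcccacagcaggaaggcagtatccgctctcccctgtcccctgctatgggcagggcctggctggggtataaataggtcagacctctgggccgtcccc
S100A6: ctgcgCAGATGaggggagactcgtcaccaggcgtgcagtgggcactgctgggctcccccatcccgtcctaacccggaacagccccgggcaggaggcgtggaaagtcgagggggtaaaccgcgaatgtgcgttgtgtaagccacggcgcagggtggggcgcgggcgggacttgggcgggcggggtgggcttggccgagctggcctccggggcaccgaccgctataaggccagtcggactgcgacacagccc
The S100A6 stretch held CATCTG once and the S100A4 stretch did not hold it. Searched on both strands of 35116 RefSeq windows of 300 bases (250 before to 50 after a start), CATCTG was in 14.7% and the longer ACATCTG, which contains it, in 3.40%. Of the 11 called genes, 10 had a window, 1 (LRMDA) had CATCTG in 1 of its windows, and 0 had ACATCTG.

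LRMDA rose as well. It encodes a leucine-rich repeat protein tied to melanocyte differentiation. LRMDA (chr10:75431453-76560167, plus strand) stood at 4.04, 10.2 and 5.90 CPM in FL-mut and at 111, 126 and 193 CPM in SF-mut. The groups were far apart, with SF-mut inside the 20.0 to 211 CPM of EV and FL-mut below EV. LRMDA had a log2 fold change of 4.41 ± 0.79 with an edgeR adjusted p of 0.0282, and 3.18 ± 0.72 between the unmutated forms (edgeR adjusted p 0.0443). Its annotated span also holds several small and antisense genes, and whether the counting used strand is not given in the sources used here.

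ZMYM3 was the 1 called gene that did not differ in the other pair. It encodes a zinc finger protein of histone deacetylase complexes that contain the demethylase LSD1. ZMYM3 (chrX:71239624-71255146, minus strand) had 0 counts in all 3 FL-mut libraries and stood at 16.3, 33.9 and 39.0 CPM in SF-mut. EV libraries held 8 to 37.2 CPM, FL libraries 12.4 to 29.8 CPM and SF-Nte libraries 19.3 to 30.1 CPM. FL-mut was thus the group that stood apart, below the other 4, and SF-mut overlapped EV. Against a floor of 3 counts over the FL-mut libraries, SF-mut was at least 32.0-fold higher (edgeR adjusted p 0.0271) and EV at least 25.7-fold higher. Between SF-Nte and FL the log2 fold change was 0.21 ± 0.63 (edgeR adjusted p 0.926); the test of the difference between the pairs did not pass for it.

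TCF3 and MDK fell to 0. TCF3 encodes the E-protein transcription factors E12 and E47, which bind E-box sites, and MDK encodes midkine, a secreted heparin-binding growth factor. TCF3 (chr19:1609290-1652605, minus strand) stood at 53.5, 14.7 and 55.3 CPM in FL-mut and had 0 counts in each SF-mut library. MDK (chr11:46380756-46383837, plus strand) stood at 30.3, 93.9 and 36.1 CPM in FL-mut and had 0 counts in each SF-mut library. Against a floor of 3 counts over the SF-mut libraries (2.11 CPM, counting error only), SF-mut was at least 19.5-fold lower for TCF3 and at least 25.3-fold lower for MDK, both with an edgeR adjusted p of 0.0282. EV held 22.5 to 34.7 CPM of TCF3 and 6 to 26.7 CPM of MDK, so SF-mut also lay below EV for both. The TCF3 call was lost in 10 of 15 alternatives (edgeR adjusted p up to 0.295), among them thinned counts, length and GC offsets, and 5 of the 6 fits with 1 library left out. The MDK call was lost in 8 of 15.

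Both genes had 0 counts in the SF-Nte libraries too. SF-Nte lay at least 8.90-fold below FL for TCF3 and at least 20.7-fold below FL for MDK. Of all genes, 14 had 0 counts in SF-mut and at least 10 in each FL-mut library, and 3 of these (MDK, TCF3 and CITED1) also had 0 counts in SF-Nte. In the reverse sense there was 1 gene, ZMYM3. MDK and TCF3 were the 2 genes with 0 counts in the 6 short-form libraries and at least 10 counts in each of the 9 others, and the short-form libraries were the shallowest.

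MICA fell. It encodes a stress-induced surface protein related to MHC class I that is a ligand of the NKG2D receptor of natural killer and T cells. MICA (chr6:31399784-31415315, plus strand) stood at 627, 568 and 1599.9 CPM in FL-mut and at 206, 55.5 and 166 CPM in SF-mut. SF-mut overlapped the 187 to 234 CPM of EV, and FL-mut lay above it. MICA had a log2 fold change of -2.69 ± 0.48 with an edgeR adjusted p of 0.0282, and -2.46 between the unmutated forms (edgeR adjusted p 0.0196). The span overlaps the non-coding gene HCP5 on the same strand.

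**Figure D2:**
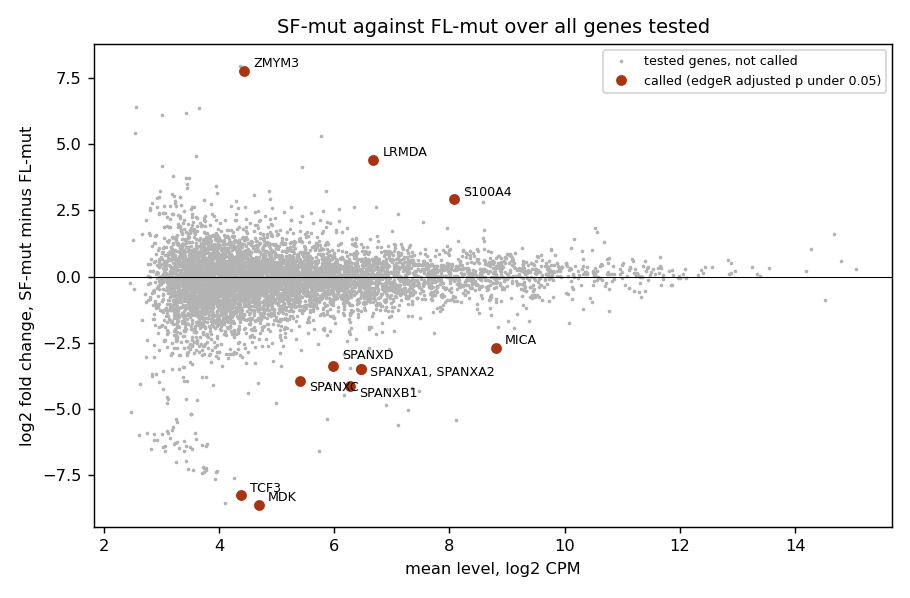
Log2 fold change of SF-mut over FL-mut (vertical axis) against mean level in log2 CPM (horizontal axis) for the 6767 genes tested, with the 11 called genes as large points. Fitted values of ZMYM3, TCF3 and MDK rest on a group at 0 and are no estimate of size; in 5 equal bins of genes by level the median runs from -0.22 in the lowest to 0.05 in the highest.

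The median fold change moved with the level of a gene. In 5 equal bins of genes from low to high mean level it was -0.22, -0.17, -0.15, -0.09 and 0.05. By GC content the highest bin had a median of -0.21 and the others -0.09 to -0.04. By transcript length the medians were -0.11 to -0.07. The part of depth and base composition in single results was not tested beyond the offsets and the thinned counts, with which 8 and 9 of the 11 calls passed.

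The mutated forms differed from each other in the same sense as the unmutated forms for most genes called in the latter. SF-Nte against FL had 72 called genes (1.06%), 33 higher (0.488%) and 39 lower (0.576%). The lower genes include the 5 SPANX copies, which count as 1 measurement of a family. No library is shared between the pairs, though all entered 1 fit. SF-Nte was also shallower than FL, with 432611 to 603155 against 803316 to 1393060 counts. It also stands in the second sample sheet with SF-mut. The part of depth or handling in what the 2 pairs share was not tested. Of the 72, 70 (97.2%) had the same sign in the mutated pair, against 64.3% of all genes tested, and 40 of the 72 had non-overlapping groups in that direction, against 719 of 6767 genes that did so in the direction of their own unmutated fold change. The 33 higher genes had a median log2 fold change of 2.60 without and 0.98 with the mutations. The 39 lower genes had medians of -3.53 and -1.57. Genes called in a contrast are those estimated large in it, so a smaller median in the other contrast says nothing of the mutations by itself, and only HMGN3 and S100A6 passed the test of the difference. Across the 6767 genes, the 2 sets of fold changes had a Pearson r of 0.35 and a Spearman rho of 0.37.

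Of the 11 genes called between the mutated forms, 10 (90.9%) were called between the unmutated forms, and of the 72, 10 (13.9%) were called between the mutated forms. These 10 include all 5 SPANX copies, read above as 1 measurement of a family, so they are not 10 separate results. The 2 genes of opposite sign were ACYP2 and USP14, both singled out after their values were seen. ACYP2 (an acylphosphatase) stood at 12.1, 17.0 and 13.3 CPM in FL-mut and 27.8, 24.7 and 12.3 CPM in SF-mut, with overlapping groups. Its log2 fold change was 0.61 with the mutations and -2.81 without them, where FL held 53.4 to 95.8 CPM. USP14 (a deubiquitinase of the proteasome) had log2 fold changes of 0.11 and -4.53, and the sign of the first turned in 5 alternatives. The test of the difference did not pass for either (edgeR adjusted p 0.337 and 0.638).

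**Figure D3:**
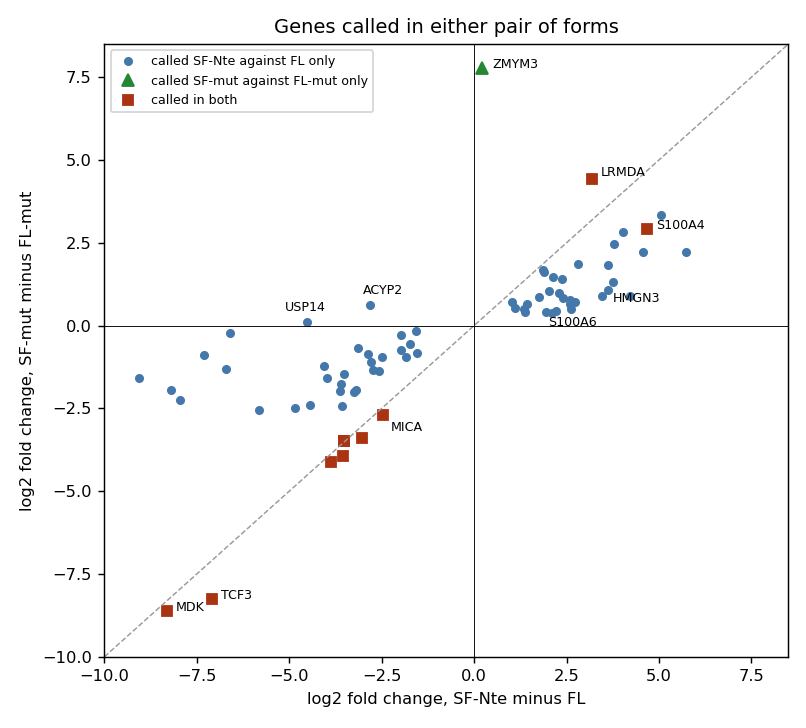
Log2 fold change of SF-mut over FL-mut (vertical axis) against that of SF-Nte over FL (horizontal axis) for genes called in either pair, with the dashed line marking equal values; positions of genes with a group at 0, such as MDK, TCF3 and ZMYM3, are no estimate of size. Of the 72 genes called on the horizontal axis, 70 share the sign on the vertical axis; ACYP2 and USP14 do not, and ZMYM3 was called on the vertical axis alone.

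Gene groups were described by their members, since outside the S100 and SPANX lists 0 list members were called by edgeR. Over all genes tested, 5.51% had SF-mut wholly above FL-mut and 8.02% wholly below, and 9.66% had an unadjusted p under 0.05. The counts of members below stand beside these shares, and several are near them. Galectins and annexins bind glycans and membrane lipids. Of 11 tested, 7 lay above 0 and 3 had SF-mut wholly above FL-mut, with a median log2 fold change of 0.47. LGALS1 (galectin-1) stood at 617, 1969 and 1010.1 CPM in FL-mut and 2085, 4546 and 2344 CPM in SF-mut, without overlap. Its log2 fold change of 1.32 ± 0.42 had an edgeR adjusted p of 0.279. ANXA2 (annexin A2) stood at 11425 to 13942 CPM in FL-mut and 20589.6 to 32074 CPM in SF-mut, a log2 fold change of 1.03 ± 0.26 (edgeR adjusted p 0.177). Between the unmutated forms both were called, at 3.76 and 2.02.

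Mesenchymal genes, which mark the invasive subtype of glioblastoma, had 0 calls by edgeR and 5 members at an unadjusted p under 0.05. Of 30 tested, 18 lay above 0 and 5 (FOSL2 and PLAU among them) had SF-mut wholly above, with a median of 0.38. FOSL2 (an AP-1 subunit) stood at 14.1, 2.26 and 2.95 CPM in FL-mut and 55.6, 24.7 and 36.9 CPM in SF-mut. Its log2 fold change was 2.61 ± 0.75 (edgeR adjusted p 0.231). The FOSL2 counts were low, at 14, 2 and 4 in FL-mut and 34, 8 and 18 in SF-mut. They were even numbers in all 15 libraries, and whether reads were counted more than once was not tested. PLAU (urokinase) differed by 2.23 (edgeR adjusted p 0.408). VIM (vimentin), also a glioblastoma marker here, had overlapping groups and a log2 fold change of 0.85 (edgeR adjusted p 0.466). Extracellular matrix genes had 15 of 19 above 0 and a median of 0.68, with 2 wholly above and 1 wholly below. SPARC, a matrix glycoprotein, stood at 154, 126 and 140.1 CPM in FL-mut and 209, 385 and 472 CPM in SF-mut (1.34 ± 0.47, edgeR adjusted p 0.337). LUM (lumican) had 1.01, 2.26 and 28.0 CPM in FL-mut and 0 counts in SF-mut.

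Actin cytoskeleton and adhesion genes were divided. Of 29 actin genes, 16 lay above 0 (median 0.21), with 1 wholly above and 2 wholly below. TMSB4X (thymosin beta-4, which binds actin monomers) stood at 7904 to 13582 CPM in FL-mut and 22568 to 42316 CPM in SF-mut, a log2 fold change of 1.61 ± 0.39 (edgeR adjusted p 0.14). PFN2 (a profilin) had overlapping groups and a value of 0.98. Of 17 integrin and adhesion genes, 8 lay above 0 (median -0.05). CAV2 (caveolin-2) stood at 49.8 to 114 CPM in FL-mut and 24.5 to 46.2 CPM in SF-mut (-1.34, edgeR adjusted p 0.295), and CD63 (a tetraspanin) overlapped at -1.21. Of 14 YAP and TGF-beta targets, 10 lay above 0 (median 0.88), and the 2 of lowest p had opposite signs: ANKRD1 at 2.13 and CTGF at -2.39 (edgeR adjusted p 0.181 and 0.379).

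Among 7 NF-kB and cytokine genes, the 2 of lowest p also had opposite signs. CCL2, a chemokine that draws monocytes, stood at 15.1, 41.9 and 12.5 CPM in FL-mut and 217, 166 and 316 CPM in SF-mut. CXCL8, a chemokine that draws neutrophils, stood at 102, 156 and 30.2 CPM in FL-mut and 6.54, 0 and 2.05 CPM in SF-mut. Neither overlapped, and the log2 fold changes were 3.35 ± 0.85 and -4.80 ± 1.34 (edgeR adjusted p 0.179 and 0.225). The list had 5 members above 0 and a median of 0.55. Of 8 interferon-stimulated genes, 6 lay above 0 with a median of 1.17. IFITM1 stood at 0, 0 and 2.95 CPM in FL-mut and 4.90, 49.3 and 100.5 CPM in SF-mut (edgeR adjusted p 0.324), and IFIT1 overlapped. Of 13 MHC class I genes, 7 lay above 0 (median 0.21), with TAP1, a peptide transporter subunit, wholly below (-1.46, edgeR adjusted p 0.392) and PSMB8, an immunoproteasome subunit, at 0.51 with overlap.

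**Figure D4:**
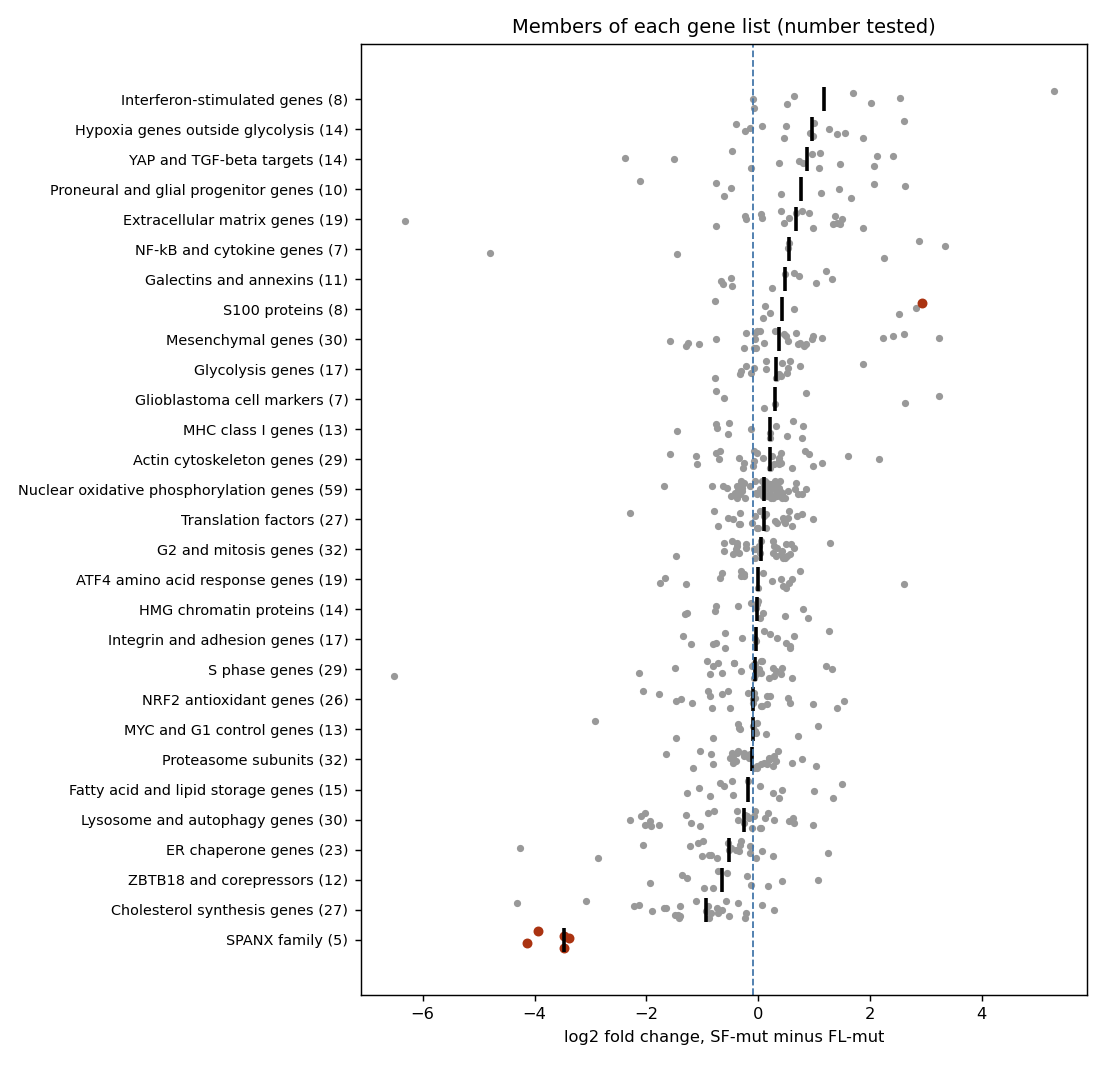
Log2 fold change of SF-mut over FL-mut (horizontal axis) for each tested member of each gene list, with black bars for list medians, red points for called genes and the dashed line at the median of all genes (-0.09). Called members are in the S100 and SPANX lists; most cholesterol synthesis and ER chaperone genes lie to the left of the dashed line.

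Genes of cholesterol synthesis and sterol handling lay below 0 for the most part, without a call. Of 27 tested, 25 lay below 0, 8 at an unadjusted p under 0.05, and 6 had SF-mut wholly below FL-mut. Their median was -0.93, against -0.09 over all genes, and -1.14 between the unmutated forms, with 21 below 0. NPC1, which exports cholesterol from lysosomes, stood at 159, 66.8 and 1192 CPM in FL-mut and 22.9, 9.25 and 36.9 CPM in SF-mut. DHCR7, the last enzyme of one branch of cholesterol synthesis, stood at 21.2, 54.3 and 56.0 CPM in FL-mut and 3.27, 6.16 and 6.15 CPM in SF-mut. Neither overlapped, and FL-mut lay above EV (13.1 to 17.8 CPM for NPC1, 4.37 to 7 CPM for DHCR7). The log2 fold changes were -4.32 ± 1.08 and -3.09 ± 0.86 (edgeR adjusted p 0.163 and 0.225), and that of NPC1 was -2.27 without FL-mut replicate 3. SC5D and CYP51A1, sterol enzymes named after their values were seen, had -1.91 and -1.39 and did not overlap either. Of 15 fatty acid and lipid storage genes, 7 lay above 0 (median -0.17), with ACACA, which makes malonyl-CoA, at 14.1, 20.4 and 19.2 CPM in FL-mut and 68.6, 37.0 and 28.7 CPM in SF-mut (edgeR adjusted p 0.353) and FADS1, a desaturase, overlapping at -0.85.

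ER chaperone genes, which fold secreted proteins, lay below 0 for 20 of 23 tested, with a median of -0.52 (-0.67 and also 20 below 0 between the unmutated forms). SF-mut was wholly below FL-mut for 3 of them. CANX (calnexin) stood at 303, 319 and 498 CPM in FL-mut and 150.3, 111 and 217 CPM in SF-mut. HYOU1, an ER chaperone induced by stress and low oxygen, stood at 113, 95.1 and 91.4 CPM in FL-mut and 9.80, 30.8 and 32.8 CPM in SF-mut. The log2 fold changes were -1.22 ± 0.32 and -2.05 ± 0.58 (edgeR adjusted p 0.186 and 0.225). Of 30 lysosome and autophagy genes, 21 lay below 0 (median -0.25) and 8 were wholly below. MRNIP stood at 499, 438 and 191 CPM in FL-mut and 106, 111 and 77.9 CPM in SF-mut (-1.93 ± 0.54, edgeR adjusted p 0.225). IGF2R, a receptor that carries lysosomal enzymes, stood at 32.3, 13.6 and 39.1 CPM and 8.17, 6.16 and 6.15 CPM (-2.02, edgeR adjusted p 0.225). The autophagy receptor SQSTM1, named after its values were seen, stood at 406 to 979.6 CPM in FL-mut and 170.2 to 258 CPM in SF-mut. MRNIP, IGF2R and SQSTM1 were called between the unmutated forms, at -3.21, -3.24 and -3.61. The spans of SQSTM1 (chr5:179806398-179838078, plus strand) and MRNIP (chr5:179835133-179862173, minus strand) overlap, so with the strand setting unknown their reads cannot be told apart and the pair may be 1 signal.

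Stress and detoxification lists were divided. Of 26 NRF2 antioxidant and metallothionein genes, 10 lay above 0 (median -0.09), with 3 wholly above and 2 wholly below. The metallothioneins MT2A and MT1X, which bind zinc and copper, were the 2 of lowest p. MT2A stood at 551, 823 and 479 CPM in FL-mut and 1400.4, 1751 and 1802 CPM in SF-mut, and MT1X at 31.3 to 49.8 CPM and 98.0 to 117 CPM. Their log2 fold changes were 1.42 ± 0.33 and 1.53 ± 0.43 (edgeR adjusted p 0.128 and 0.225). Of 19 ATF4 amino acid response genes, 9 lay above 0 (median -0.01). CEBPG (a bZIP factor) had SF-mut wholly below at -1.75 and DDIT3 (CHOP) overlapped at -1.67. Of 32 proteasome subunits and regulators, 13 lay above 0 (median -0.11), with the activators PSME2 at 1.03 and PSME1 at 0.78 wholly above (edgeR adjusted p 0.266 and 0.342).

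Metabolic and growth lists had medians from 0.11 to 0.95 and 0 calls by edgeR. In all, 10 members had an unadjusted p under 0.05, a share no larger than the 9.66% of all genes in either direction. All 10 were higher with SF-mut, a larger share than the 3.81% of all genes in that direction. Of 17 glycolysis genes, 11 lay above 0 (median 0.33), with ENO1 (enolase) at 0.75 and GAPDH at 0.57. Of 14 hypoxia genes outside glycolysis, 11 lay above 0 and 1 was wholly above, with a median of 0.95. HIF1A stood at 68.7, 67.9 and 54.6 CPM in FL-mut and 88.2, 166 and 252 CPM in SF-mut (1.40 ± 0.48, edgeR adjusted p 0.313), and DDIT4 overlapped. Of 59 nuclear oxidative phosphorylation genes, 37 lay above 0 (median 0.11), with 5 wholly above and 0 wholly below, led by NDUFA2 at 0.86 and NDUFA12 at 0.78. Translation factors had 15 of 27 above 0 (median 0.11), with EIF3L at 0.69 and EIF4G2 at 0.97. None of the genes named in these lists passed (edgeR adjusted p 0.275 to 0.579).

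Cell cycle lists showed 0 calls by edgeR, with 6 members at an unadjusted p under 0.05, a share no larger than the 9.66% of all genes. Of 32 G2 and mitosis genes, 18 lay above 0 (median 0.04) and 0 were non-overlapping; STMN1 (stathmin) had 0.57 and HMMR 1.28. Of 29 S phase genes, 13 lay above 0 (median -0.06). CDC6, which licenses replication origins, stood at 25.2, 41.9 and 71.5 CPM in FL-mut and 16.3, 3.08 and 10.3 CPM in SF-mut, whereas PRIM1, a primase subunit, stood at 10.3 to 32.8 CPM and 36.9 to 58.8 CPM. The 2 thus differed in opposite directions (-2.13 and 1.32, edgeR adjusted p 0.225 and 0.349). Of 13 MYC and G1 control genes, 10 lay below 0 (median -0.09), with the cell cycle inhibitor CDKN1A (-2.93) and the cyclin CCND3 (-1.48) wholly below (edgeR adjusted p 0.45 and 0.46).

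Of 14 HMG and variant histone genes, 5 lay above 0 (median -0.03); HMGB2, a DNA-bending protein, stood at 424 to 525 CPM in FL-mut and 681 to 1011 CPM in SF-mut (0.81 ± 0.27, edgeR adjusted p 0.311). Of 12 genes in the list of ZBTB18 and corepressors, 9 lay below 0 (median -0.64). DNMT1 (a DNA methyltransferase) had SF-mut wholly below at -1.94 and KDM1A (LSD1) wholly above at 1.07, neither called (edgeR adjusted p 0.456 and 0.652). KDM1A rested on few reads, with 9, 7 and 13 counts in FL-mut and 17, 5 and 6 in SF-mut. Of 10 proneural and glial progenitor genes, 6 lay above 0 and 3 were wholly above, with a median of 0.76, against -0.13 between the unmutated forms. SOX4, a progenitor transcription factor, stood at 39.4, 37.3 and 62.7 CPM in FL-mut and 131, 173 and 285 CPM in SF-mut. FABP7, a lipid-binding protein of radial glia, stood at 22.2, 3.40 and 23.6 CPM in FL-mut and 34.3, 98.6 and 178 CPM in SF-mut. The groups did not overlap, and the log2 fold changes were 2.07 ± 0.55 and 2.62 ± 0.84 (edgeR adjusted p 0.191 and 0.28), with 0.39 and -0.24 between the unmutated forms.

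**Figure D5:**
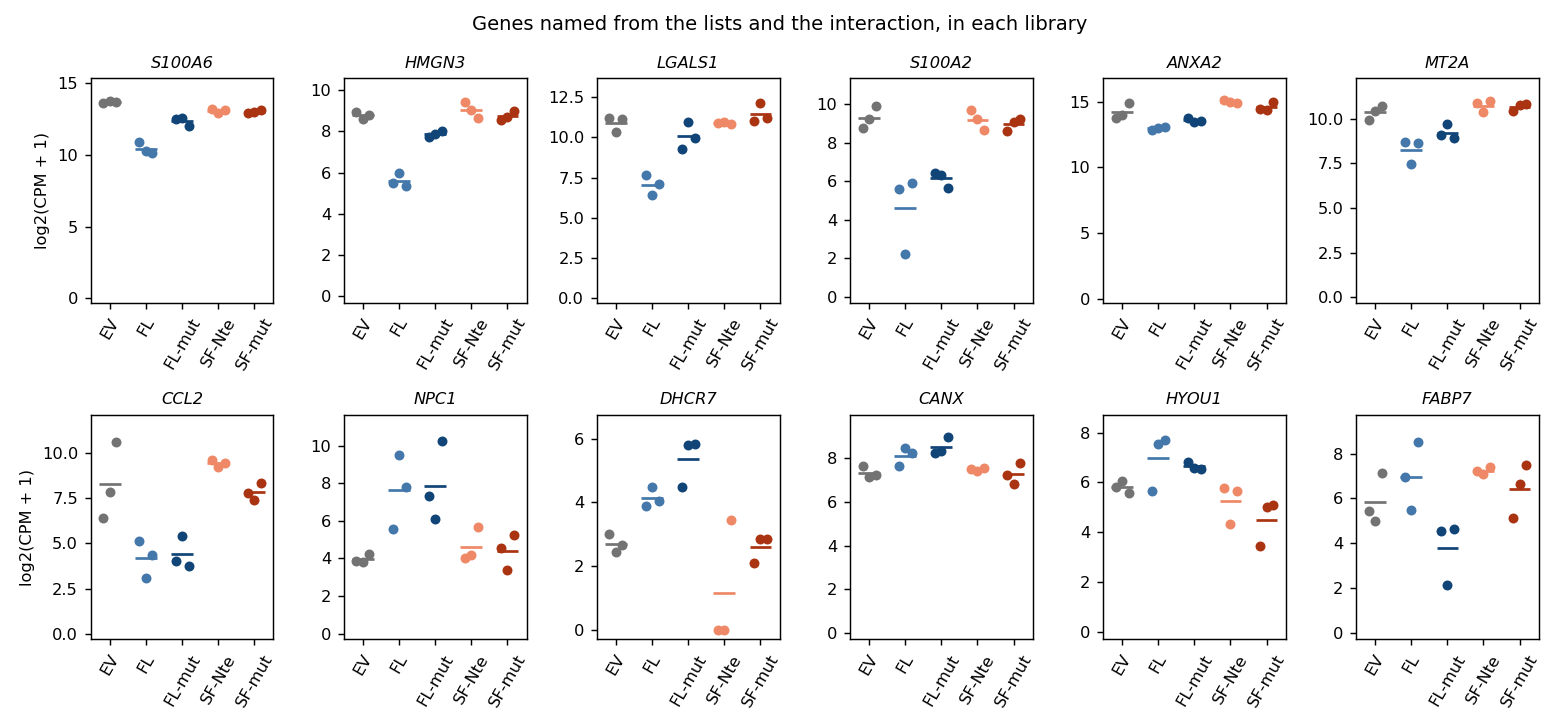
Level of 12 genes named from the lists or from the test of the difference between the pairs, as log2(CPM + 1) on the vertical axis by construct, with points for libraries and bars for group means. S100A6, HMGN3 and LGALS1 are lowest in FL, with FL-mut nearer to the short forms, while NPC1 and DHCR7 are higher in both full-length groups than in SF-mut.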

How the data were processed

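The table that the authors deposited holds raw counts (whole numbers) for each gene symbol in 15 libraries. Build GRCh38 is named per the submitters' processing notes. The aligner, counting tool and strand setting were not given in the sources used here. The reads carry no molecular identifiers here, so floors cover counting error only. Groups came from sample titles. Counts were tested with edgeR 4.0.16 (R 4.3.3): filterByExpr (minimum count 10, total 15), TMM scaling, and a robust quasi-likelihood model with 1 coefficient per group over all 15 libraries (10 residual degrees of freedom), with Benjamini-Hochberg adjustment at 0.05 over 6767 genes. CPM, standard errors (log2 fold change over the square root of F) and floors (3 counts over a group's libraries) were computed from the deposited counts. Positions, lengths and GC content came from GENCODE 29 (97.2% of symbols matched). Alternatives included DESeq2 1.42.0, other filters, thinning, a replicate block, length and GC offsets, and leaving out libraries.

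The 32 gene lists and the rules were chosen with earlier results of these data known, so they are no independent support. Genes named were ZBTB18, called genes without overlap whose higher group had 10 or more counts per library, and per list up to 4 called members or, in lists of 5 or more tested, the 2 of lowest p, and those past the threshold in the test of the difference. Other names were chosen after values were seen: S100A2, S100A3, S100A16, SQSTM1, SC5D, CYP51A1, ACYP2, USP14 and KRT8. KRT8 had a log2 fold change of 1.72 with overlapping groups. Replicates differed by more than sampling noise (chi-square per gene 3.82 to 29.1), so none was taken for a library deposited again. In 2 lists a member had a group at 0 counts (LUM and LIG1), and setting it to its floor did not move the list's median.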

Additional observations from a re-analysis of the deposited data

Results flagged for a closer look

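The effect of the form differed between the mutated and the unmutated constructs, by the test of the difference itself, for HMGN3 (-2.57 on the log2 scale) and S100A6 (-1.95). In both genes SF-mut lay above FL-mut in 3 of 3 libraries, and SF-Nte lay above FL in 3 of 3 libraries by a larger margin. The values ranged from -2.88 to -2.42 for HMGN3 and from -2.29 to -1.79 for S100A6 over 22 alternatives, of which 11 and 8 passed the threshold.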

How the results depend on the processing

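The counts of genes called moved with the processing. Of 75 named genes 73 kept their direction under every alternative run, including all 11 called genes. Most were named for a call or a low p in these libraries, which the alternatives fit again, so a kept direction is no independent support. Of the 11 called genes, 0 passed in every fit with 1 library left out. With 1 library left out, 26 named genes moved by over 1.5 times or turned, 0 of them called genes; among them were CTGF (-3.15 to -1.23), PLAU (1.20 to 2.57) and S100A16 (-1.31 to -0.27). SF-mut libraries held the fewest counts, and with all libraries thinned to the shallowest the calls were 11, 71 and 2. For SF-mut against FL-mut (11 called), SF-Nte against FL (72) and the difference between the pairs (2), the calls were 117, 296 and 8 with DESeq2 and 134, 301 and 49 with no filter on low counts. With at least 10 counts in every library they were 2, 33 and 2, as fewer genes were tested. With only the libraries of the groups they were 0 (306 at an unadjusted p under 0.05 in edgeR), 130 and 0 (233 at an unadjusted p under 0.05). With 1 library left out they ranged from 0 to 16, from 12 to 64 and from 0 to 1. With the SPANX copies summed, an alternative added after the data were seen, they were 7, 63 and 2. With length and GC offsets they were 12, 89 and 1. The causes were not tested.

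Same-numbered FL-mut and SF-mut libraries had deviations from their group means that correlated at 0.31, 0.41 and 0.06, and unlike-numbered ones at -0.39 to 0.20. The third same-numbered value stayed under the limit of 0.1, so the numbers were not taken to pair the libraries. Replicate 2 had a mean GC content of 50.6% in FL-mut and 50.8% in SF-mut, against 48.6% to 49.5% in the other libraries of the pair. The main test holds no term for an effect shared by replicate number. With the replicate block the calls were 12, 81 and 2, and with the block and the offsets together 13, 159 and 1. TCF3 did not pass with the block (edgeR adjusted p 0.0918), with thinned counts (0.0601), with the offsets (0.0631), with both (0.100) or with only the libraries of the groups (0.295).

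With 1 library left out, HMMR ranged from -0.15 (without SF-mut replicate 1) to 1.68. USP14 turned to -0.0195 with no filter and -0.58 with thinned counts. It ranged from -0.12 to 0.41 with 1 library left out, turning to -0.10, -0.12 and -0.09 when FL-mut replicate 3, SF-mut replicate 1 and SF-mut replicate 3 were dropped. ZBTB18 passed with no filter (-1.18, edgeR adjusted p 0.0301, against 0.247 to 0.997 in the other alternatives).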
